A study of Rattus norvegicus with 12 samples.

Results

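ENSRNOG00000007089 is 1 of 32883 genes in a count table of cultured rat lung vessel cells, and its RNA was higher with an siRNA against NRF2 in both cell types studied. It lies on chromosome 6, from 126282233 to 126320726 on the minus strand, and its 14 listed exon intervals add up to 1984 bases. The gene was chosen by its measured log2 fold changes in these libraries, as one that rose in both cell types, so its changes with the siRNA and the order of its levels are descriptions and carry no test. The study used primary cultures of smooth muscle cells (PASMC), which contract the wall of the pulmonary artery, and of endothelial cells (PAEC), which line it. The 4 groups were PASMC with siNRF2, PASMC with siControl, PAEC with siNRF2 and PAEC with siControl, with 3 libraries each. All were wild type, and the labels give neither the age of the animals nor the time after the siRNA. Small interfering RNAs direct the cell to degrade mRNAs with a matching sequence.

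The titles of the samples gave the groups, because another field names PASMC as the cell type of all 12. Column names are abbreviations, and reading their letters as cell type and siRNA is an inference on which every direction here rests. The table pairs no gene with a symbol, so the siRNA target and the markers of endothelial and smooth muscle cells were not analysed here. Libraries held 27008812 to 34317763 counts. The replicates are called biological in the design text, but whether they came from separate animals or cultures is not stated, so p-values measure the spread between these libraries.

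NRF2 is a transcription factor that, once released from its inhibitor KEAP1, binds antioxidant response elements and switches on genes of the oxidative stress response. The position of ENSRNOG00000007089 points to Lgmn, which encodes legumain, and this name is an inference because no ID could be matched to a symbol. Legumain is a lysosomal cysteine protease that cuts proteins after asparagine. It is made as an inactive precursor, is activated at acid pH, and is known for processing other lysosomal proteases such as cathepsins. It is also known from macrophages and from remodelling of the extracellular matrix.

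The inference rests on strand, span and neighbours. The gene spans 38494 bases in the count table, and Lgmn spans 38443 bases on the minus strand of the same chromosome in the RefSeq annotation of the GRCr8 assembly. RefSeq has Slc24a4 and Rin3 on one side of Lgmn and Golga5 and Chga on the other. The genes of the table in those places span 135027, 108963, 25388 and 11343 bases, against 140215, 109174, 28161 and 11344 bases for the RefSeq genes. Among 865 protein-coding genes of that chromosome in RefSeq, Lgmn was the 1 place where all 5 consecutive spans lay within 15% of those in the table, while 6 genes had a span within 1% of that of the gene alone. The sources used here do not give the build of the count table.

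The promoter of Lgmn is shown because NRF2 acts on promoters and enhancers of its targets. These are the 250 bases before the RefSeq start of Lgmn (GRCr8, chr6:127347329-127347578, minus strand), with matches to the motifs searched in capitals.
Lgmn: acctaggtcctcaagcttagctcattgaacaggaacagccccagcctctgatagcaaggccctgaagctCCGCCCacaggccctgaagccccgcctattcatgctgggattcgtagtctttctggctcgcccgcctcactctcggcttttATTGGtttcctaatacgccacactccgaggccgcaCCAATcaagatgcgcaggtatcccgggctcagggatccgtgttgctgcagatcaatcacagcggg
Both strands were searched for 5 motifs. The CCAAT box (CCAAT) was found 2 times, once on each strand, and 34.02% of 33469 rat promoter windows of the same length hold it. The GC box (GGGCGG) was found 1 time, on the reverse strand, and is in 30.5% of windows. The core of the antioxidant response element (TGACNNNGC), present in 10.1% of windows, had 0 matches. The AP-1 site (TGACTCA, 4.05% of windows) and the E-box CACGTG (5.59% of windows) also had 0 matches, which says only that these letters are not in this window. The window is 57.6% G and C, against a median of 51.2% over all windows.

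The level of the gene was first followed across the libraries. In smooth muscle cells with siNRF2 it had 10195, 10582 and 10533 counts in replicates 1 to 3, which is 289, 298 and 281 CPM (counts relative to library size, with sizes scaled by TMM). In smooth muscle cells with siControl it had 3118, 3898 and 4085 counts, or 96.4, 114 and 99.3 CPM. The groups did not overlap, which the choice of the gene required. The lowest siNRF2 library held 2.47 times the CPM of the highest siControl library. The mean was 289 ± 8.71 CPM with siNRF2 and 103 ± 9.29 CPM with siControl (SD, n = 3 each), a log2 fold change of 1.49 (SE 0.080, edgeR) or 2.80-fold. The libraries are bulk RNA, so more RNA per cell and more cells that express the gene cannot be told apart.

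Endothelial cells gave the larger rise of the gene. With siNRF2 the endothelial libraries had 19559, 21691 and 21410 counts, or 734, 807 and 739 CPM. With siControl they had 2562, 2329 and 2844 counts, or 90.35, 87.8 and 102 CPM. Again the groups did not overlap, as the choice required. Every siNRF2 library held 7.21 to 9.20 times the CPM of any siControl library. The mean was 760.4 ± 40.8 CPM with siNRF2 and 93.3 ± 7.46 CPM with siControl (SD, n = 3 each), a log2 fold change of 3.03 (SE 0.085, edgeR) or 8.15-fold. The log2 effect in PAEC exceeded that in PASMC by 1.54 (SE 0.11). Since both effects were used to choose the gene, that difference is given with no test.

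The replicates lay close together at this depth. The coefficient of variation of the CPM was 3.01% in PASMC siNRF2, 9.005% in PASMC siControl, 5.36% in PAEC siNRF2 and 7.99% in PAEC siControl. Counting error alone would give 0.979%, 1.65%, 0.692% and 1.97% for these groups in the same order. The spread between libraries thus exceeded the counting error in each group, and the depth did not limit the values of this gene. As a share of all counts, the gene took 0.0332 ± 0.00100% in PASMC siNRF2 and 0.0122 ± 0.000784% in PASMC siControl. It took 0.0643 ± 0.00358% in PAEC siNRF2 and 0.00814 ± 0.000590% in PAEC siControl (mean ± SD, n = 3 each).

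**Figure D1:**
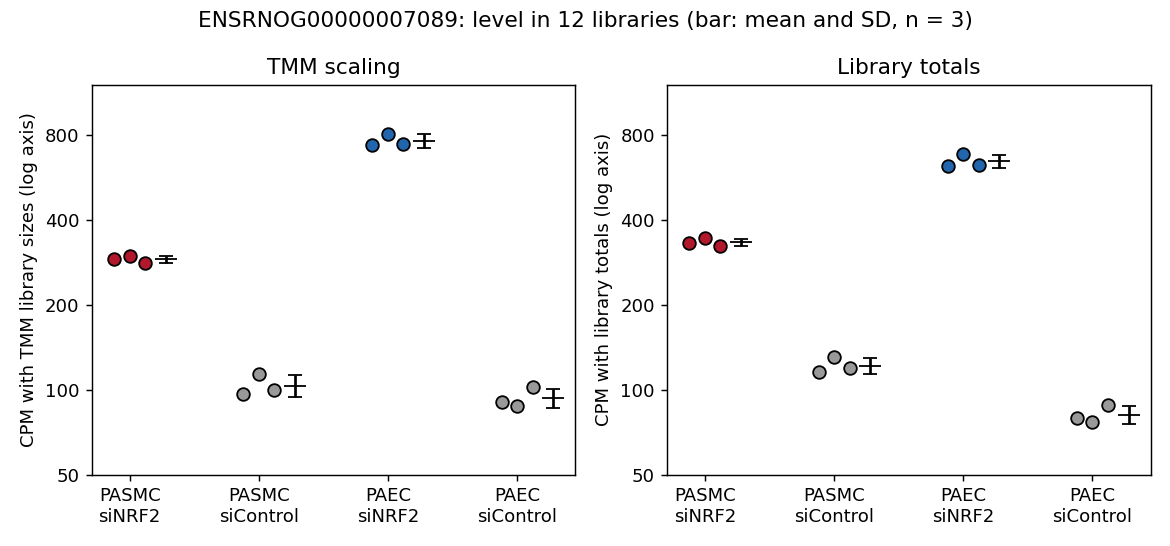
Level of ENSRNOG00000007089 in each of 12 libraries, in CPM on a log axis, with TMM library sizes on the left and library totals on the right; points are replicates 1 to 3 and bars are the mean and SD. The siNRF2 libraries lie above the siControl libraries in both cell types and under both scalings, and the siControl libraries of the cell types overlap with TMM but not with library totals.

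The order of the group levels was PAEC siNRF2, PASMC siNRF2, PASMC siControl and PAEC siControl, highest to lowest. Under control siRNA the cell types are neighbours in this order, and that contrast was not used to choose the gene, though it shares the siControl libraries with those that were. PAEC siControl ranged from 87.8 to 102 CPM and PASMC siControl from 96.4 to 114 CPM, so the groups overlapped. The log2 difference, PAEC minus PASMC, was -0.14 (95% interval -0.31 to 0.022, SE 0.079) and did not pass the threshold (edgeR quasi-likelihood test, two-sided, adjusted p = 0.131). Of 14584 genes tested in this contrast, 27.7% were called higher and 28.3% lower in PAEC, which is 4046 and 4123 genes, against 2125 higher and 7488 lower when scaled by library totals alone. The call for this gene rested on the scaling and on 1 library. Scaled by library totals alone, which moves the median of all genes by -0.44, the log2 difference was -0.58 (adjusted p = 1.68e-06, edgeR), and without PAEC siControl replicate 3 it was -0.23 (adjusted p = 0.0218).

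Under siNRF2 the levels of the cell types were apart, at 734 to 807 CPM in PAEC and 281 to 298 CPM in PASMC. The log2 difference, PAEC minus PASMC, was 1.39 (SE 0.079, edgeR) with TMM and 0.95 (SE 0.073) with library totals. It uses the levels that chose the gene and has no test.

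Levels were then set against other genes per length, in FPKM (the same CPM divided by the listed exon length in kilobases). In PASMC the gene stood at 146 ± 4.39 FPKM with siNRF2 and 52.0 ± 4.68 FPKM with siControl. In PAEC it stood at 383 ± 20.6 FPKM with siNRF2 and 47.0 ± 3.76 FPKM with siControl (mean ± SD, n = 3 each). The level was 18.0 times the median of tested genes in PASMC siNRF2 and 6.36 times in PASMC siControl. In PAEC it was 49.5 times the median with siNRF2 and 6.06 times with siControl.

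The gene was therefore among the more abundant ones even under control siRNA. By mean FPKM it ranked 448 of 14584 tested genes in PASMC siNRF2, against 1413 in PASMC siControl. In PAEC it ranked 224 with siNRF2, against 1801 with siControl. Single libraries ranked it from 432 to 455 in PASMC siNRF2 and from 1334 to 1506 in PASMC siControl. In PAEC they ranked it from 222 to 229 with siNRF2 and from 1668 to 1924 with siControl.

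The rise was also ranked among all tested genes, as a description. By log2 fold change the gene was at rank 190 of 14584 in PASMC and at rank 71 in PAEC. The genes ranked above it were at lower levels. None of the 189 genes with a larger rise in PASMC had a higher mean CPM than this gene in siNRF2, and the highest of them had 153 CPM. None of the 70 genes with a larger rise in PAEC exceeded it either, and the highest of those had 22.7 CPM. By the gain in mean CPM, which favours abundant genes, it was at rank 86 in PASMC with 186 CPM and at rank 22 in PAEC with 667 CPM.

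**Figure D2:**
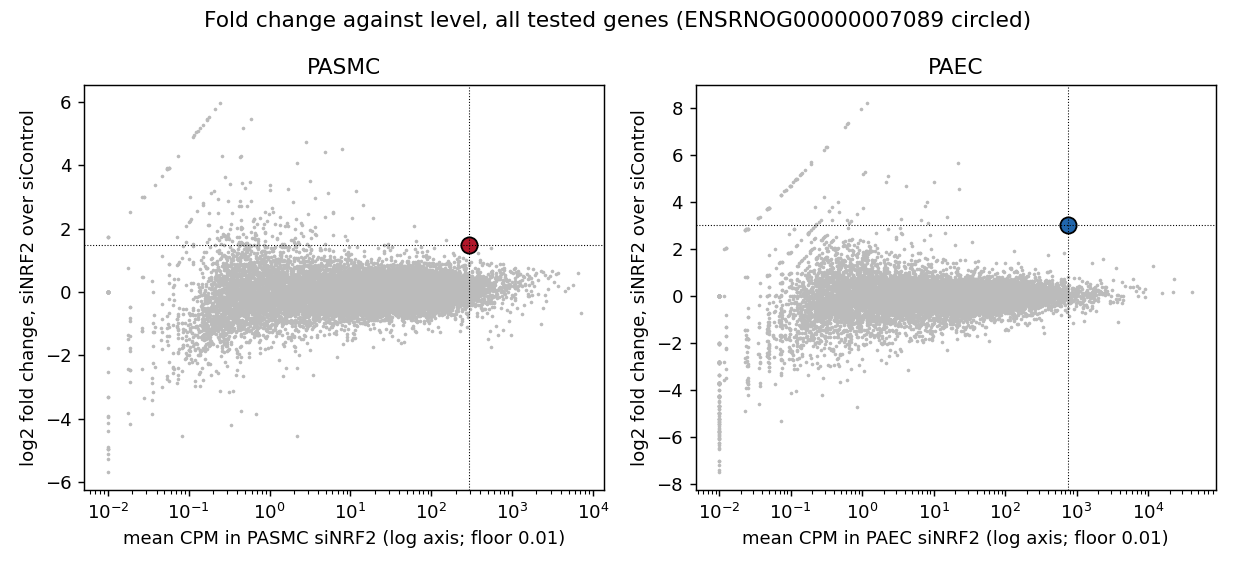
Log2 fold change of siNRF2 over siControl against the mean CPM in siNRF2 (log axis) for each of 14584 tested genes, in PASMC on the left and PAEC on the right; the large point and the dotted lines mark ENSRNOG00000007089. No gene lies both above and to the right of it in either cell type.

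By the smaller of its 2 log2 fold changes, 1.49, the gene ranked 3 among 10935 tested genes that averaged 2 CPM or more in both PASMC and PAEC, and 19 among all 14584 tested genes. That measure, among genes above this level that also passed the test and did not overlap between siRNAs in either cell type, was the one that singled out this gene and 1 other. The gene at rank 1, on chromosome 16 from 73755539 to 73763312, had a smaller change of 3.12, but its effects had SEs of 1.70 in PASMC and 1.76 in PAEC. Its level was 11.9 ± 17.1 CPM in PASMC siNRF2, so the SD exceeded the mean. The gene at rank 2, on chromosome 9 from 10963723 to 10971277, had a smaller change of 1.54 and was the other gene singled out. ENSRNOG00000007089, at 1.49, was the lower of the 2 and so the last in rank inside the choice. Next in rank, and outside the choice, was the gene at rank 4, on chromosome 8 from 22856539 to 22858565, with a smaller change of 1.25. Its libraries did not overlap between siRNAs in either cell type.

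These neighbours in rank differed from the gene in level and in the balance between the cell types. The gene on chromosome 9 averaged 23.2 ± 1.43 CPM in PAEC siNRF2 and 7.94 ± 1.71 CPM in PAEC siControl. The gene on chromosome 8 had log2 effects of 1.25 (SE 0.17) in PAEC and 2.74 (SE 0.19) in PASMC. ENSRNOG00000007089 had its larger effect in PAEC.

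**Figure D3:**
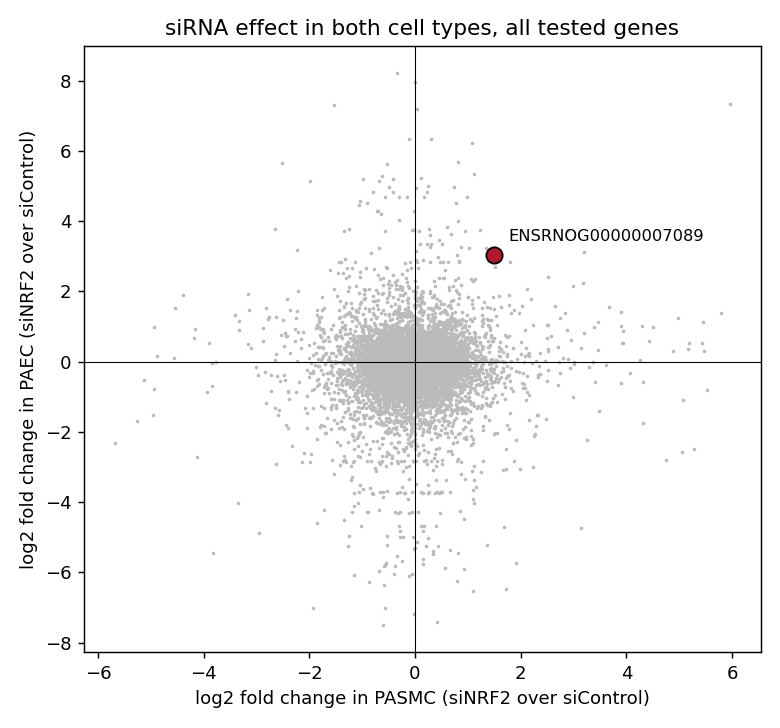
Log2 fold change of siNRF2 over siControl in PAEC (vertical) against that in PASMC (horizontal) for each tested gene, with ENSRNOG00000007089 marked at 1.49 and 3.03. The marked gene sits in the upper right part, apart from the bulk of genes around 0.

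The next comparison asked whether genes beside the locus changed with it. Within 1 Mb on either side of its midpoint the table holds 30 other genes, of which 16 were tested, and none of the 30 overlaps its span. In PASMC 1 of the 16 rose and 3 fell (edgeR, adjusted p under 0.05), where 16.1% and 14.6% of all tested genes did. In PAEC 4 rose and 2 fell, where 11.5% and 13.2% of all tested genes did. None of the 16 was called in both cell types. Of all 14584 tested genes, 459 rose in both, 452 fell in both and 619 were called in opposite directions. Calls in both were thus a minority of all tested genes too. The siRNA effect was called higher in PAEC than in PASMC for 5 of the 16 and lower for 3, where 13.6% and 15.4% of all tested genes were. Their median log2 fold change was -0.049 in PASMC and 0.21 in PAEC, against 0.0048 in PASMC and 0 in PAEC over all tested genes. The 1 rise in PASMC was not called with library totals, and with single libraries left out that gene was called only without PAEC siControl replicate 3 or PASMC siControl replicate 1. The count of falls in PAEC was 1 without PAEC siControl replicate 2.

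The nearest gene moved the other way in endothelial cells. It lies 2550 bases beyond the end of ENSRNOG00000007089, at 126170720 to 126279682 on the plus strand, in the place where RefSeq has Rin3, an activator of endosomal Rab GTPases. In PAEC it had 18.8, 13.9 and 19.1 CPM with siNRF2 and 28.7, 28.04 and 28.5 CPM with siControl. Its fall in PAEC was -0.72 on the log2 scale, with an SE of 0.12 (adjusted p = 0.00023, edgeR). The PASMC libraries had 56.6, 51.9 and 59.9 CPM with siNRF2 and 43.5, 44.4 and 53.8 CPM with siControl, and the groups overlapped. The log2 fold change there was 0.25 (SE 0.12, adjusted p = 0.113, edgeR).

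On the other side the nearest gene starts 32496 bases away, at 126353223 to 126378610 on the plus strand, in the place of Golga5, a protein of the Golgi. Its log2 fold change was 0.21 in PAEC (SE 0.096, adjusted p = 0.132) and -0.022 in PASMC (SE 0.096, adjusted p = 0.898, edgeR). The next tested gene, at 126450139 to 126582134, was the 1 rise in PASMC, at 0.41 on the log2 scale (SE 0.15, adjusted p = 0.0486). In PAEC it was at -0.21 (SE 0.15, adjusted p = 0.346).

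Further off, the 4 genes that rose in PAEC started at 125437775, 125644804, 125742796 and 126661634. The largest of these changes was 1.86 (SE 0.48, adjusted p = 0.00739, edgeR) for the gene at 125437775, at 2.55 ± 0.944 CPM with siNRF2 and 0.698 ± 0.326 CPM with siControl. The others rose by 0.48 (SE 0.080), 0.71 (SE 0.11) and 0.30 (SE 0.11) on the log2 scale. The rise of 0.30, at 126661634, lay near the threshold (adjusted p = 0.0468, edgeR). It was not called with library totals (adjusted p = 0.101, edgeR), with limma voom (adjusted p = 0.0658) or with any PAEC siControl library left out. In PASMC the 3 falls were of the genes starting at 125819640, 125864020 and 125870372, which lie side by side among the tested genes. Their log2 fold changes were -0.40 (SE 0.11), -1.29 (SE 0.40) and -0.60 (SE 0.089). The fall at 125864020 was not called without PASMC siControl replicate 1 or 3, or PASMC siNRF2 replicate 2 or 3 (adjusted p up to 0.0915, edgeR). That at 125819640 was not called without PASMC siNRF2 replicate 1 (adjusted p = 0.0791, edgeR). The fall at 125870372 was called under every alternative.

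**Figure D4:**
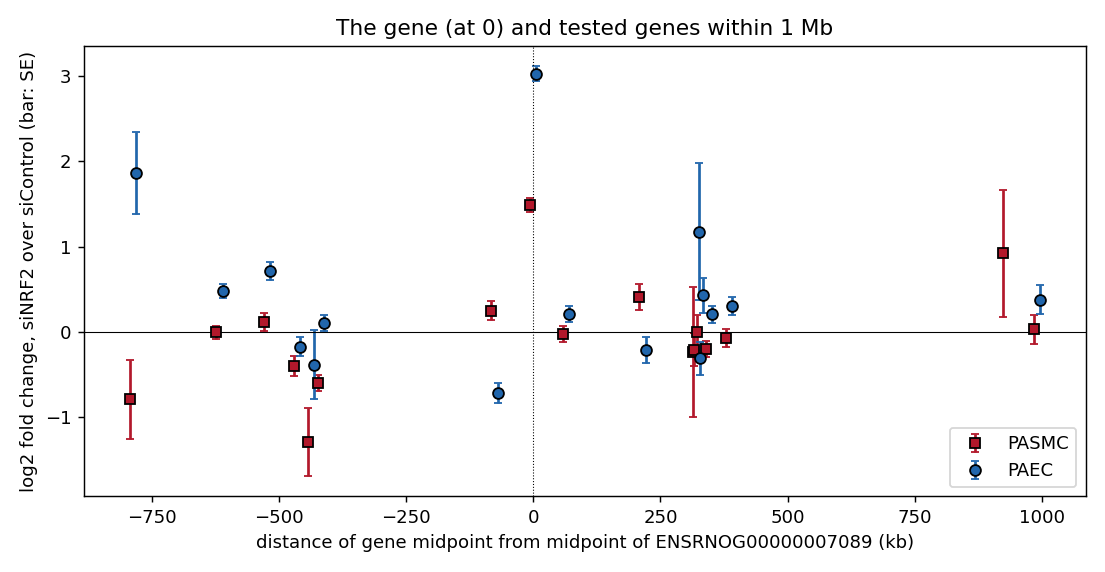
Log2 fold change of siNRF2 over siControl (bars are SE) against the distance in kb between gene midpoints, for ENSRNOG00000007089 at 0 and the tested genes within 1 Mb; squares are PASMC and circles are PAEC. The gene stands at 1.49 and 3.03, while the nearest tested gene on either side lies between -0.72 and 0.25. The PAEC value of 1 gene with 0 counts in PAEC siNRF2 is left out.

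Last, genes with the most similar pattern were sought by the Pearson correlation of log2 CPM with this gene over the 12 libraries, among the 10934 other genes that averaged 2 CPM or more in both PASMC and PAEC. The libraries share cell type and siRNA, so the correlations describe a common pattern of groups and carry no test. The median correlation was 0.0295, and 52 genes reached 0.9. The highest, 0.9913, belonged to a gene on chromosome 16 from 74317899 to 74408030. It had 82.0, 81.0 and 82.6 CPM in PASMC siNRF2 and 49.9, 48.5 and 48.0 CPM in PASMC siControl. In PAEC it had 118, 114 and 117 CPM with siNRF2 and 49.3, 51.4 and 52.3 CPM with siControl. Like ENSRNOG00000007089 it was highest in PAEC siNRF2, but its effects were smaller, at 0.75 (SE 0.070) in PASMC and 1.19 (SE 0.071) in PAEC on the log2 scale.

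The next 4 genes had correlations from 0.9713 to 0.9813. They started at 7658890 on chromosome 1, 103300932 on chromosome 13, 141386391 on chromosome 7 and 17969219 on chromosome 14. Their log2 effects were from 0.30 to 0.48 in PASMC and from 0.56 to 1.06 in PAEC. Each of the 5 most similar genes had a larger effect in PAEC than in PASMC, as the measure of likeness favours. The gene most opposed in pattern, on chromosome 1 from 264059374 to 264072433, had a correlation of -0.984. It averaged 884 ± 4.47 CPM in PAEC siNRF2 and 1986 ± 14.2 CPM in PAEC siControl, and 1390.1 ± 59.3 CPM in PASMC siNRF2 against 1832 ± 93.6 CPM in PASMC siControl (SD, n = 3 each). Another on the same chromosome, from 1702696 to 1731210, had a correlation of -0.9719, with log2 effects of -1.01 (SE 0.078) in PAEC and -0.78 (SE 0.077) in PASMC. With the Spearman correlation, 2 of the 5 most similar genes stayed among the first 5, and with a prior count of 0.5 all 5 did.

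**Figure D5:**
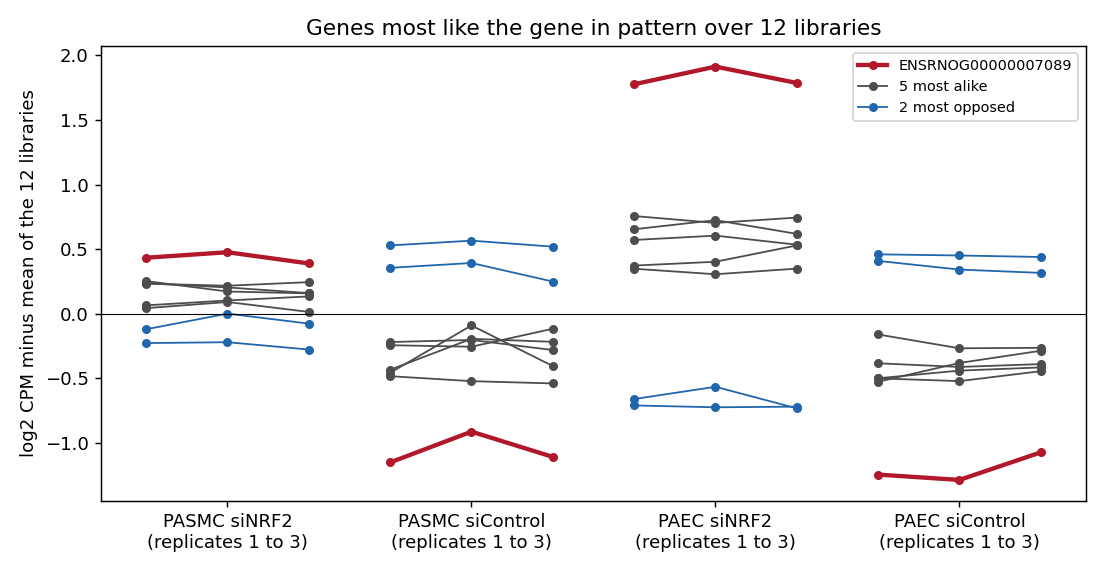
Log2 CPM minus the mean of the 12 libraries for ENSRNOG00000007089 (thick line), the 5 genes most like it in pattern and the 2 most opposed to it, by group and replicate. The thick line spans the widest range, and the most similar genes are likewise higher with siNRF2, with smaller steps.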

How the data were processed

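RNA-seq of 12 libraries of rat PASMC and PAEC was analysed. Trizol was used for RNA and a directional kit for the libraries, per the labels' protocols. The deposited table gives raw counts, as whole numbers, beside the exons and length of each gene. HISAT2 2.0.5, featureCounts 2.0.3 and DESeq2 1.32.0 are named, per the submitters' processing notes, without their roles. The sources used here give no genome build, no strand setting and no treatment of reads with several matches.

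Of 32883 genes, 14584 passed edgeR's filterByExpr, this gene among them. Libraries were scaled by TMM, and 1 model with a coefficient per group (8 residual degrees of freedom) was fitted over all genes with edgeR 4.0.16 in R 4.3.3 (glmQLFit with robust estimation, glmQLFTest). P-values were adjusted by Benjamini-Hochberg over all tested genes, with a threshold of 0.05. Standard errors come from the F statistics, and log2 CPM used a prior count of 2. The steps were tested on simulated data. The member and the comparisons were chosen with earlier results of these data known. Genes named besides it are, by rule, the 5 most and 2 least similar in pattern, those next to it in rank, and neighbours within 1 Mb, whose further ones were picked because they were called. Gene lists by symbol (lysosomal proteases, cystatins, lysosome, NRF2 targets, cell type markers) were not run, since 0 of 32883 IDs matched a symbol. Alternatives were other scalings, no filter on low counts, only the libraries compared, DESeq2 1.42.0, limma voom 3.58.1, a replicate block and leaving out each library.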

Additional observations from a re-analysis of the deposited data

Results flagged for a closer look

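For 8 of the 16 tested genes within 1 Mb of ENSRNOG00000007089, the effect of the siRNA differed between the cell types by the test of that difference (edgeR interaction, PAEC effect minus PASMC effect, adjusted p under 0.05), where 13.6% of all tested genes were called above and 15.4% below. These 8 calls were not recomputed under the alternatives. The difference was 2.66 (SE 0.67, adjusted p = 0.00625) for the gene at 125437775 to 125590049, which was at low CPM. It was 0.48 (adjusted p = 0.00386) for the gene at 125644804 to 125723944, and 0.59 (adjusted p = 0.00598) for that at 125742796 to 125812517. It was 0.70 (adjusted p = 0.000611) for the gene at 125870372 to 125898874 and 0.41 (adjusted p = 0.0302) for that at 126636491 to 126656507. The effect in PAEC was below that in PASMC for the nearest gene, at 126170720 to 126279682, by -0.97 (adjusted p = 0.00041), and for the gene at 126450139 to 126582134, by -0.63 (adjusted p = 0.0365). The fitted difference for the gene at 127212273 to 127248372 was -6.83 (adjusted p = 0.00923). The counts do not fix its size, because this gene had 0 counts in the 3 PAEC siNRF2 libraries. The prior count of 2 for log2 CPM was not set in this fit. It had 19 counts in the PAEC siControl libraries, 14 of them in 1 library. With 3 counts over the PAEC siNRF2 group as the floor and the 19 taken as exact, it was 6.31-fold lower in PAEC siNRF2. That ratio leaves out the spread between the siControl libraries. Without PAEC siControl replicate 2, which held the 14, the ratio was 2.44-fold, and the fall of the gene in PAEC was no longer called (edgeR, adjusted p = 0.0715).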

How the results depend on the processing

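The siRNA effects of ENSRNOG00000007089 moved by less than the spread between replicates (0.096 on the log2 scale) under every alternative run. They ranged from 1.44 to 1.56 in PASMC and from 2.97 to 3.08 in PAEC, both ends with single libraries left out, and their difference ranged from 1.46 to 1.61. The difference between the cell types under siControl, -0.14, was called with library totals (-0.58) and ranged from -0.23 to -0.075 with single libraries left out. Its adjusted p ran from 1.68e-06 to 0.451 over all alternatives (edgeR, DESeq2 and limma). Under siNRF2 that difference was 0.95 with library totals and from 1.34 to 1.41 with single libraries left out.

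Among the genes within 1 Mb, the count that rose in PASMC was 1, and 0 with library totals, with no filter on low counts and with only the 6 libraries compared, and from 0 to 1 with single libraries left out. The count that fell in PAEC was 2, and 1 with limma voom and with only the 6 libraries compared, and from 1 to 2 with single libraries left out. Over all alternatives, the count that rose in PAEC, 4, ranged from 3 to 5, and the count that fell in PASMC, 3, from 2 to 3. The cause was not tested. With library totals, the counts over all genes under siControl were 2125 higher and 7488 lower in PAEC. All other counts over all genes that were recomputed, for the siRNA effect in PASMC, in PAEC and their difference, and for the cell types under siControl, stayed within 1.5 times of the main ones.

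Whether same-numbered siNRF2 and siControl libraries share more than a number is not stated. The correlations of their deviations from the group means were -0.037, 0.013 and 0.0028 in PASMC and -0.058, -0.021 and -0.035 in PAEC. These values cannot decide it, since they cover all tested genes, with low counts among them, and means of 3 libraries. With the replicate block, the effects were 1.49 in PASMC and 3.02 in PAEC. Depth did not limit the values of this gene, while genes nearby with under 3 CPM had standard errors up to 0.76 in PASMC. In PAEC they reached 0.81, and 1.61 for the gene with 0 counts in PAEC siNRF2.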
